A study of Mus musculus with 12 samples.

Results

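Disease-associated microglia genes are the genes that microglia, the resident macrophages of the brain, raise around amyloid plaques. The 34 genes described here were chosen by name, as genes known from disease-associated microglia of amyloid mouse models, and they are 34 of the names behind the 35275 gene identifiers of the deposited table. They matched 35 identifiers, since Clec7a has 2, of which the shorter held no read in any library and was left out. The data are RNA-seq of brain cortex from mice 8 months old, labelled female, in 4 groups of 3 libraries, titled 1, 2 and 4 in every group. The groups are APP/PS1 mice, which carry the 2 Alzheimer transgenes, APP/PS1/Sirt3-/- mice, which carry the transgenes on a global deletion of Sirt3, Sirt3-/- mice with the deletion alone, and WT mice with neither. The study asked how amyloid pathology and the metabolic disturbance of Sirt3 loss act together in the brain, and it had itself singled out 6 of the 34 genes (Cst7, Ccl3, Itgax, Clec7a, Tyrobp and Cd83) in these libraries, so those 6 are not independent evidence of their own direction. The 34 genes and the other gene lists were also chosen with earlier results of these data known. Counts and medians over them are thus not independent evidence either.

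The transgenes of this APP/PS1 line are a mutant APP and a mutant presenilin 1 driven by the mouse prion promoter, which is most active in neurons, and the mice form plaques as they age. SIRT3 is a mitochondrial deacetylase. The strain background of the sequenced Sirt3-/- mice is not stated, since mice on 129 Sv and on C57BL/6 backgrounds are both described. The libraries are taken as separate mice. Cortical tissue was used and not sorted cells. A higher level from more microglia, from more RNA per cell or from unlike tissue in the sample thus cannot be told apart.

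Microglia in the healthy brain express a homeostatic programme with receptors such as P2ry12 and Tmem119. When they meet plaques, they pass through a Trem2-dependent change of state in which phagocytic receptors, lysosomal proteins, lipid handling genes and chemokines rise. Trem2 is a lipid-sensing receptor that signals through its adaptor Tyrobp, and mice without either form this state poorly.

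The promoters of 4 of the genes that the study had singled out are shown. For Tyrobp and Cd83, the others it had singled out, no promoter window was available. RefSeq held a promoter window for 27 of the 34 genes, and the 250 bases before the start are given 5′ to 3′ on the strand of the gene, in GRCm38.p6. Cst7 (ENSMUSG00000068129) at chr2:150570165-150570414 on the plus strand, Clec7a (ENSMUSG00000079293) at chr6:129472780-129473029 on the minus strand, Itgax (ENSMUSG00000030789) at chr7:128129300-128129549 on the plus strand and Ccl3 (ENSMUSG00000000982) at chr11:83649379-83649628 on the minus strand are each protein-coding. Capitals mark GAGGAA, the core that the macrophage factor PU.1 binds, and TGANTCA, the AP-1 motif, on either strand.
Cst7: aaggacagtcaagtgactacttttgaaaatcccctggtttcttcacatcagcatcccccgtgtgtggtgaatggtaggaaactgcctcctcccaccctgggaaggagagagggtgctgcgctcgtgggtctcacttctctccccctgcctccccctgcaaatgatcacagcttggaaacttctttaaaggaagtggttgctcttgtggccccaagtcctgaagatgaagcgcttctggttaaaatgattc
Clec7a: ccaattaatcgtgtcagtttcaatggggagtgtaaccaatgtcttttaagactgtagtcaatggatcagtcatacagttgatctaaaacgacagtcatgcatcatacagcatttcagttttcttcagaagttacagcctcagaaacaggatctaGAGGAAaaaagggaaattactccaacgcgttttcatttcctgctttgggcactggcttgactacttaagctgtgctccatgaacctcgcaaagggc
Itgax: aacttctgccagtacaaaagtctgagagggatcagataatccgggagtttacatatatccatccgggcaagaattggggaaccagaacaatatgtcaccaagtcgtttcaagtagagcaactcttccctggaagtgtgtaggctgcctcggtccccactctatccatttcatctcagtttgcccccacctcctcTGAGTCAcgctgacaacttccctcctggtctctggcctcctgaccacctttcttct
Ccl3: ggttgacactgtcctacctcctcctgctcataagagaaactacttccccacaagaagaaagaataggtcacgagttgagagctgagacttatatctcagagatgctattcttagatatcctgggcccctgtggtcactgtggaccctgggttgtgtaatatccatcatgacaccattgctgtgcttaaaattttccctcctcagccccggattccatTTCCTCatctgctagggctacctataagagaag
GAGGAA was in 10 of the 27 windows, against 23.3% of all 32851 windows of that length, and TGANTCA was in 6 of 27, against 6.75% of all. The E-box CACGTG was in 1 of 27, Hif1a, against 6.02% of all. No motif overlapped another in the 4 windows shown, and the window of Cst7 held none of the 3. A match is a run of letters and not a measured binding site.

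Labels and reads disagreed in several libraries. Sirt3 had 28.6, 0.211 and 27.7 CPM (read counts scaled by TMM to a common library total) in the libraries labelled APP/PS1/Sirt3-/-, numbers 1, 2 and 4, and 0.186 to 0.467 CPM in Sirt3-/-, against 58.99 to 64.5 CPM in APP/PS1 and WT. App had 3614, 3794 and 1623 CPM in the libraries labelled APP/PS1 and 3295 to 3856 CPM in those labelled APP/PS1/Sirt3-/-, against 1602 to 1844 CPM in Sirt3-/- and WT, so the library labelled APP/PS1 4 lay with the libraries without transgenes. In all 4 groups, library 4 held Y-linked reads (Ddx3y at 32.3 to 38.4 CPM, against at most 0.158 CPM in the other 8) although every mouse is labelled female. Markers of neighbouring tissue also varied, with choroid plexus marker Ttr between 8.44 and 1568 CPM and the summed thalamic markers between 52.7 and 335 CPM. Summed striatal markers were 1245 to 2277 CPM in Sirt3-/-, against 233 to 465 CPM in WT. They were 348 to 916 CPM in the libraries labelled APP/PS1 and 205.5 to 1323 CPM in those labelled APP/PS1/Sirt3-/-. Contrasts that use the Sirt3-/- libraries thus also compare tissue with unlike striatal markers. Groups and libraries are named by their labels throughout, and reads counted in genes were 15251720 to 18644376 per library.

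The genes differed widely in abundance. Per length, the deposited FPKM values of WT put Cd63 (70.2 ± 9.67 FPKM, SD, n = 3), Ank (66.3 ± 1.57) and Timp2 (59.8 ± 16.4) highest, which other brain cells also express, and Clec7a (0.0581 ± 0.0782), Ch25h (0.0138 ± 0.0239) and Ccl4 (0.0645 ± 0.0559) lowest. Cst7 stood at 6.40 ± 8.57 FPKM in APP/PS1 and 6.12 ± 0.984 FPKM in APP/PS1/Sirt3-/-, against 0.249 ± 0.226 FPKM in Sirt3-/- and 0.129 ± 0.112 FPKM in WT. In the groups with transgenes its mean thus reached the FPKM range of Trem2, which averaged 6.28 ± 3.40 FPKM in APP/PS1 and 5.73 ± 0.851 FPKM in APP/PS1/Sirt3-/-. The APP/PS1 mean of Cst7 rests mostly on library 2, with 55, 243 and 1 reads in libraries 1, 2 and 4. In WT, where Trem2 averaged 3.66 ± 0.250 FPKM, Cst7 was far below it.

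**Figure D1:**
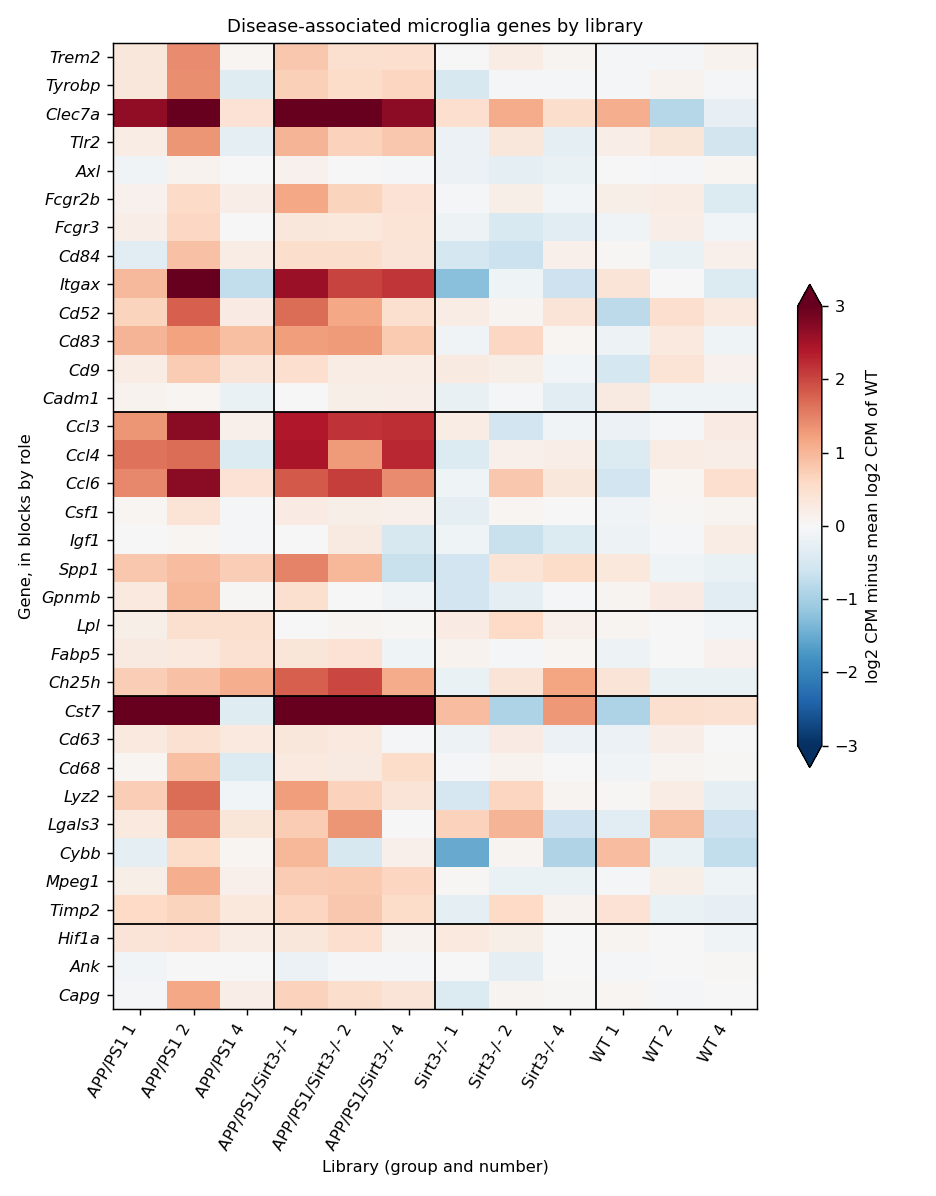
Log2 CPM of each of the 34 genes (rows, in blocks by role) in each of the 12 libraries (columns), minus the mean log2 CPM of the 3 WT libraries. Colours end at 3 in either direction. The strongest reds are Cst7, Clec7a, Itgax, Ccl3, Ccl4 and Ccl6 in 5 of the 6 libraries labelled with the transgenes, while the column of APP/PS1 4 is pale for these genes.

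The average effect of the APP/PS1 transgenes, over both Sirt3 genotypes, uses all 12 libraries and gave the most calls among these genes. Of the 34 genes, 32 passed the filter on low counts (Ccl4 and Ch25h did not). Cst7, Itgax, Clec7a and Ccl3 had at most 7, 11, 6 and 3 reads in any Sirt3-/- or WT library. They thus passed the filter only through libraries labelled with the transgenes, and the filter favoured positive values for them. In a single edgeR quasi-likelihood fit of all 12 libraries, with p-values adjusted over all 16673 genes tested and a threshold of 0.05, 6 genes rose (Cd83, Ccl3, Fcgr3, Clec7a, Ccl6 and Mpeg1) and 0 fell. Of all genes tested, 1.11% rose. The median log2 fold change was 0.53 over the 32 genes and 0.00040 over all genes tested, and 31 of the 32 had a positive value, against 50.1% of all. At an unadjusted p under 0.05, 23 of the 32 passed, as did 3481 of all 16673. DESeq2 on the same libraries called 13 genes, adding Itgax, Cst7, Timp2, Tyrobp, Trem2, Cd52 and Hif1a, and it called 6.4% of all genes in either direction, against 2.05% in edgeR.

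That count depended on single libraries, and so did the share of all genes called in either direction. In edgeR it was 10 without the library labelled APP/PS1 4 (0.83% of all genes called), 13 without the library labelled APP/PS1/Sirt3-/- 4 (8.18%) and 9 without Sirt3-/- 2 (10.8%). It was 2 without APP/PS1 2 or the library labelled APP/PS1/Sirt3-/- 2, 1 without APP/PS1 1, Sirt3-/- 1, Sirt3-/- 4, WT 1 or WT 2, and 0 without the library labelled APP/PS1/Sirt3-/- 1 or WT 4, with at most 0.776% of all genes called in any of these. Of the genes that rose, Cd83 kept the call in 18 of 23 alternatives, Ccl3 in 12 of 22, Ccl6 in 10 of 22, Fcgr3 and Mpeg1 in 9 of 23 each and Clec7a in 8 of 22. With mean levels of choroid plexus, striatal and thalamic markers as covariates it was 0, in a fit that called 4 of all 16673 genes. Leaving out the libraries labelled APP/PS1/Sirt3-/- 1 and 4 left 1 library in that group, so counts of those fits are not read here. Without the 4 libraries that hold Y-linked reads the count was 3, with 0.699% of all genes called.

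**Figure D2:**
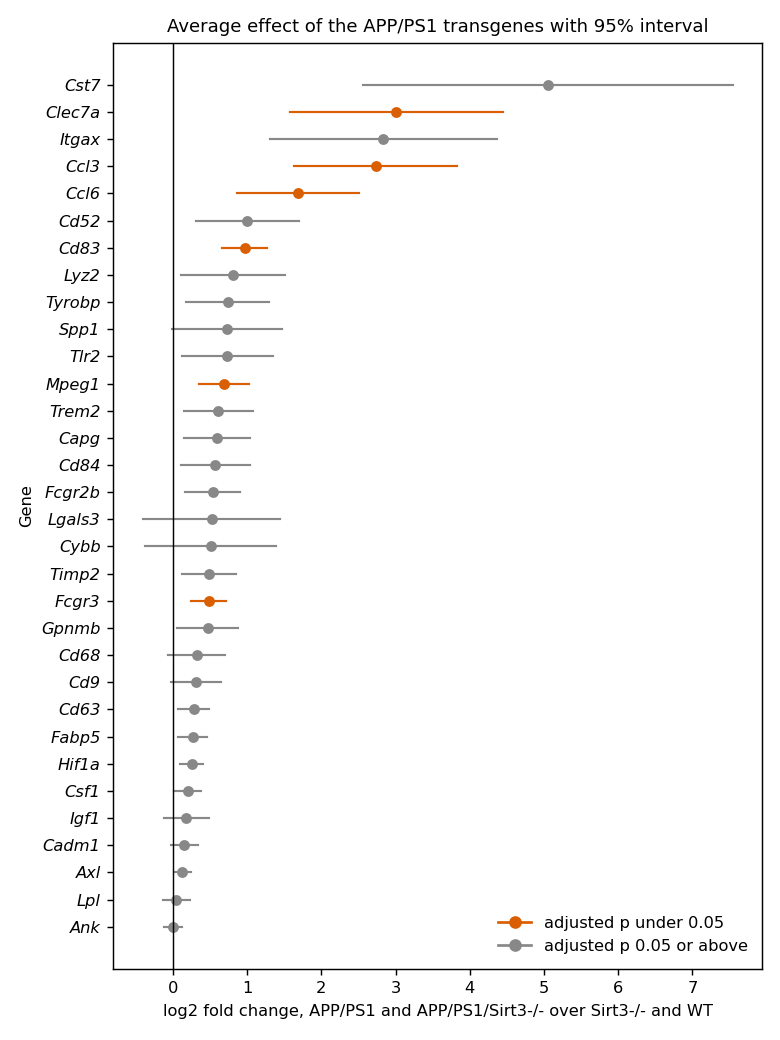
Average log2 fold change of the APP/PS1 transgenes (x axis) for the 32 genes tested (y axis), with 95% intervals from edgeR. Coloured points passed an adjusted p of 0.05. Cst7, at 5.05, lies farthest right with a wide interval, and Cd83, at 0.97, has a narrow one.

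Cst7 encodes cystatin F, an inhibitor of lysosomal cysteine proteases that healthy microglia hardly express. Its level was 2.94, 15.6 and 0.0571 CPM in the libraries labelled APP/PS1 and 6.18, 6.70 and 5.03 CPM in those labelled APP/PS1/Sirt3-/-, against 0.310, 0 and 0.443 CPM in Sirt3-/- and 0, 0.199 and 0.191 CPM in WT (values here and below are in the order of libraries 1, 2 and 4). Thus 5 libraries stood above all 6 of Sirt3-/- and WT, and the library labelled APP/PS1 4 lay among them, with 1 read. In reads this was 299 in APP/PS1 and 321 in APP/PS1/Sirt3-/-, against 12 in Sirt3-/- and 6 in WT. The average log2 fold change was 5.05 (standard error, SE, 1.10, adjusted p = 0.0542 from edgeR), and over 22 alternatives the adjusted p ran from 0.000661 to 0.801 and passed in 5.

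Among the receptors, Clec7a (Dectin-1), Itgax (the integrin subunit CD11c) and the pair Trem2 and Tyrobp were likewise highest in APP/PS1 2 and low in the library labelled APP/PS1 4. Clec7a had 1.23, 3.35 and 0.171 CPM in the libraries labelled APP/PS1 and 1.79, 1.64 and 1.27 CPM in those labelled APP/PS1/Sirt3-/-, against 0.186, 0.350 and 0.190 CPM in Sirt3-/- and 0.343, 0 and 0.0635 CPM in WT. This rests on 78 and 84 reads in the groups with transgenes, against 12 in Sirt3-/- and 7 in WT. Its average log2 fold change was 3.01 (SE 0.659, adjusted p = 0.0412 from edgeR). Itgax had 1.02, 6.37 and 0.228 CPM in the libraries labelled APP/PS1 and 3.35, 2.22 and 2.43 CPM in those labelled APP/PS1/Sirt3-/-, against 0.124, 0.409 and 0.253 CPM in Sirt3-/- and 0.628, 0.465 and 0.317 CPM in WT. Its log2 fold change of 2.84 (SE 0.690) had an adjusted p of 0.0607 from edgeR and passed in 3 of 22 alternatives. For both genes APP/PS1 2 was the highest of the 12 libraries and the library labelled APP/PS1 4 lay within the range of Sirt3-/- and WT.

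Trem2 had 22.4, 47.8 and 18.6 CPM in the libraries labelled APP/PS1 and 31.4, 24.9 and 25.2 CPM in those labelled APP/PS1/Sirt3-/-, against 17.6, 20.8 and 19.0 CPM in Sirt3-/- and 17.3, 17.0 and 19.2 CPM in WT. Tyrobp, its adaptor, had 15.1, 31.9 and 9.25 CPM in the libraries labelled APP/PS1 and 19.8, 17.7 and 18.9 CPM in those labelled APP/PS1/Sirt3-/-, against 8.56, 11.4 and 11.6 CPM in Sirt3-/- and 11.7, 12.96 and 11.4 CPM in WT. In the libraries labelled APP/PS1/Sirt3-/- the receptor and the adaptor both stood above all 6 libraries without transgenes, by less than the excess of APP/PS1 2. The average log2 fold changes were 0.61 (SE 0.209, adjusted p = 0.137 from edgeR) for Trem2 and 0.74 (SE 0.250, adjusted p = 0.136) for Tyrobp, so neither passed the test, while DESeq2 on all 12 libraries called both.

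**Figure D3:**
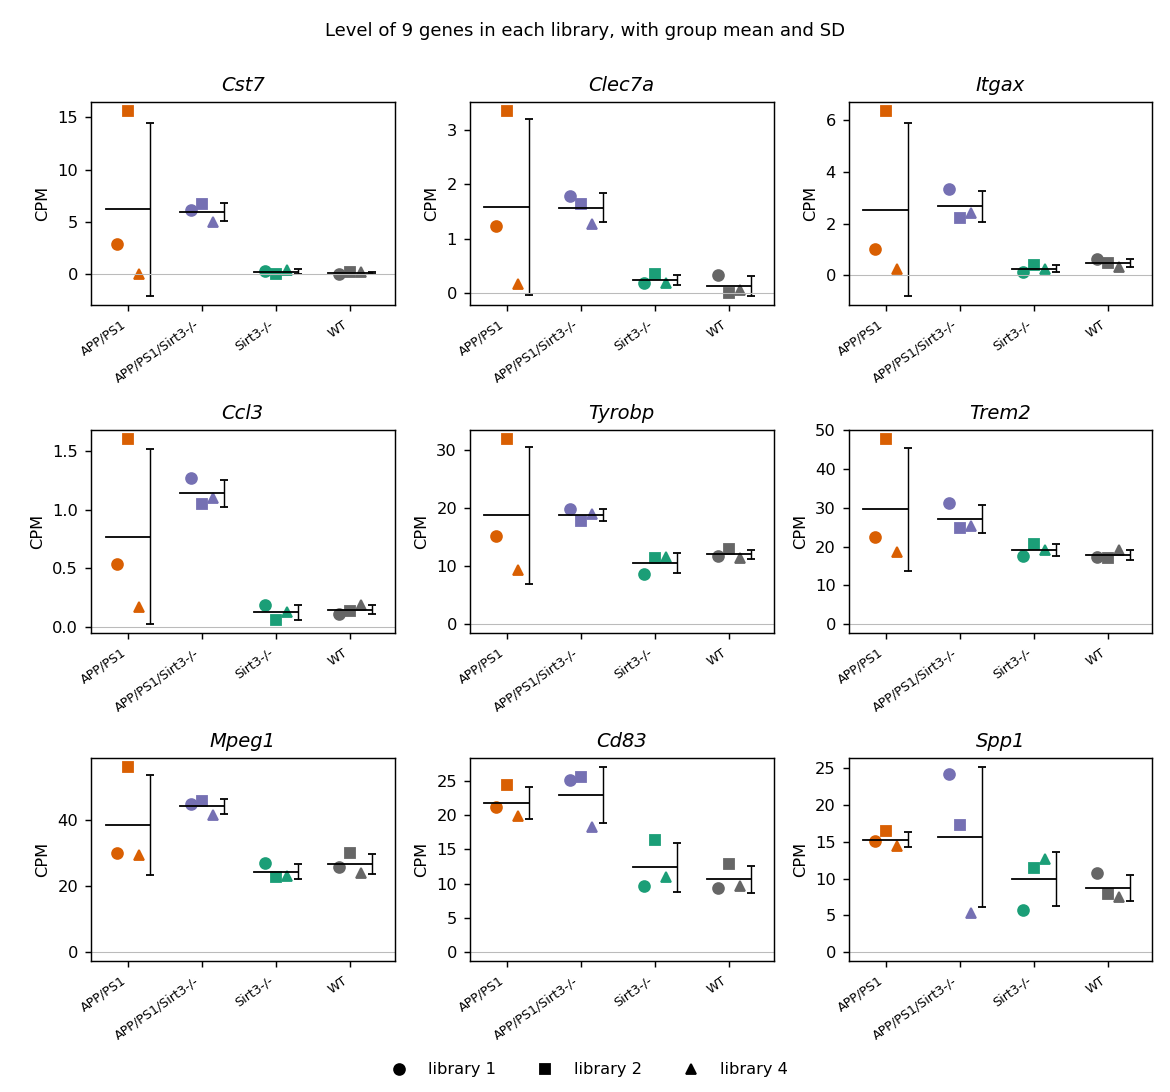
CPM of 9 genes (1 panel each, y axis from 0 or below) in the 4 groups. Points are libraries (circle 1, square 2, triangle 4), the long bar is the group mean and the error bar its SD. In Cst7, Clec7a, Itgax, Ccl3, Tyrobp and Trem2 the square of APP/PS1 is highest and its triangle sits with Sirt3-/- and WT; in Cd83 and Spp1 the triangle of APP/PS1 is high too.

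Cd83, an immunoglobulin-family glycoprotein best known from mature dendritic cells, was the gene with the smallest adjusted p of the set. It had 21.2, 24.3 and 19.8 CPM in the libraries labelled APP/PS1 and 25.1, 25.5 and 18.3 CPM in those labelled APP/PS1/Sirt3-/-, against 9.68, 16.4 and 11.0 CPM in Sirt3-/- and 9.42, 12.8 and 9.59 CPM in WT. It alone of the 34 was higher in each of the 6 libraries labelled with the transgenes than in any of the other 6, which held for 0.786% of all genes tested. The log2 fold change was 0.97 (SE 0.140, adjusted p = 0.0160 from edgeR). With the marker covariates it was 0.71 with an adjusted p of 0.256. Unlike Cst7, Cd83 was high in the library labelled APP/PS1 4, and among libraries without transgenes it was highest in Sirt3-/- 2 and WT 2. Summed choroid plexus markers were 1314 CPM in Sirt3-/- 2 and 1703 CPM in WT 2, against 13.3 to 32.2 CPM in the other 4 of those libraries, and the part of this tissue in the level of Cd83 was not tested beyond the covariate fit.

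Markers of dendritic cells and T cells did not order the libraries as Cd83 did. Of the 7 on that list 3 were tested and 0 were called, and their summed level was 25.5, 34.8 and 29.5 CPM in the libraries labelled APP/PS1 and 25.0, 35.3 and 27.0 CPM in those labelled APP/PS1/Sirt3-/-, against 30.6, 26.3 and 28.4 CPM in Sirt3-/- and 29.8, 33.4 and 31.8 CPM in WT. Most of this was Flt3 and Zbtb46. Xcr1, which defines a class of dendritic cells, was at 0 in 10 of the 12 libraries.

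The Fc receptors had positive fold changes that differed in their support. Fcgr3, an activating receptor for IgG, had 12.5, 16.7 and 11.0 CPM in the libraries labelled APP/PS1 and 13.9, 13.5 and 14.6 CPM in those labelled APP/PS1/Sirt3-/-, against 9.80, 7.88 and 8.61 CPM in Sirt3-/- and 10.2, 12.4 and 10.2 CPM in WT. It rose by 0.48 on the log2 scale (SE 0.109, adjusted p = 0.0408 from edgeR). Fcgr2b, the inhibitory receptor, had 3.10, 4.25 and 3.25 CPM in the libraries labelled APP/PS1 and 6.41, 4.54 and 3.82 CPM in those labelled APP/PS1/Sirt3-/-, against 2.73, 3.21 and 2.66 CPM in Sirt3-/- and 3.20, 3.32 and 2.10 CPM in WT. Its log2 fold change of 0.54 (SE 0.172) had an adjusted p of 0.106. The 2 genes are close relatives, and reads in shared stretches may have been split between them in counting.

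Of the other receptors, Cd84, Tlr2 and Cd52 had fold changes of the same sign that did not pass. Cd84, a SLAM-family receptor, had 2.03, 4.76 and 2.97 CPM in the libraries labelled APP/PS1 and 3.70, 3.75 and 3.36 CPM in those labelled APP/PS1/Sirt3-/-, against 1.74, 1.58 and 2.85 CPM in Sirt3-/- and 2.63, 2.19 and 2.86 CPM in WT. Tlr2, a receptor for bacterial lipoproteins, had 1.50, 3.35 and 1.03 CPM in the libraries labelled APP/PS1 and 2.71, 2.11 and 2.31 CPM in those labelled APP/PS1/Sirt3-/-, against 1.12, 1.64 and 1.01 CPM in Sirt3-/- and 1.49, 1.66 and 0.825 CPM in WT. Cd52, a small lipid-anchored surface peptide, had 2.25, 5.08 and 1.66 CPM in the libraries labelled APP/PS1 and 4.62, 3.22 and 1.97 CPM in those labelled APP/PS1/Sirt3-/-, against 1.61, 1.46 and 1.84 CPM in Sirt3-/- and 0.742, 1.99 and 1.71 CPM in WT. All 3 were highest in APP/PS1 2, and their adjusted p from edgeR was 0.148, 0.166 and 0.108, with log2 fold changes of 0.57, 0.73 and 1.00. Cd52 overlaps another gene of the table on the opposite strand, and the sources used here do not give whether counting used strand.

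Axl, Cd9 and Cadm1 had smaller fold changes, and none passed. Axl, a receptor tyrosine kinase through which phagocytes recognise dying cells, had 54.9, 63.9 and 59.4 CPM in the libraries labelled APP/PS1 and 65.2, 59.4 and 57.5 CPM in those labelled APP/PS1/Sirt3-/-, against 52.5, 48.5 and 51.6 CPM in Sirt3-/- and 58.5, 58.0 and 61.7 CPM in WT. Its average log2 fold change was 0.13 (SE 0.0525, adjusted p = 0.188 from edgeR), with the Sirt3-/- libraries below all of WT. Cd9, a tetraspanin, had 0.31 (SE 0.151, adjusted p = 0.271) and the adhesion molecule Cadm1, which neurons express strongly, 0.15 (SE 0.0849, adjusted p = 0.332).

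Among secreted proteins 2 chemokines rose. Ccl3, a ligand of Ccr1, had 0.535, 1.61 and 0.171 CPM in the libraries labelled APP/PS1 and 1.27, 1.06 and 1.10 CPM in those labelled APP/PS1/Sirt3-/-, against 0.186, 0.0584 and 0.127 CPM in Sirt3-/- and 0.114, 0.133 and 0.190 CPM in WT. It rose by 2.73 on the log2 scale (SE 0.512, adjusted p = 0.0245 from edgeR), from 38 and 61 reads in the groups with transgenes, against 6 in Sirt3-/- and 7 in WT. Ccl4, a related chemokine that sits beside it in the genome, had too few reads for the test, although edgeR called it higher in 3 alternatives in which it was tested (no filter, without the library labelled APP/PS1 4 and without Sirt3-/- 2). Its reads numbered 7, 6 and 0 in the libraries labelled APP/PS1 and 13, 5 and 11 in those labelled APP/PS1/Sirt3-/-, against 0, 1 and 1 in Sirt3-/- and 0, 1 and 1 in WT. Ccl6, a chemokine of mouse macrophages, had 2.41, 5.98 and 1.14 CPM in the libraries labelled APP/PS1 and 3.23, 3.85 and 2.37 CPM in those labelled APP/PS1/Sirt3-/-, against 0.744, 1.52 and 1.08 CPM in Sirt3-/- and 0.514, 0.864 and 1.21 CPM in WT. It rose by 1.68 (SE 0.377, adjusted p = 0.0435), with a gene on the opposite strand overlapping it. The library labelled APP/PS1 4 lay within the range of Sirt3-/- and WT for all 3 chemokines. The receptor Ccr1 had too few reads for the test.

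Spp1 (osteopontin), a phagocyte-derived ligand of Cd44 and of integrins, ordered the libraries differently. It had 15.1, 16.4 and 14.4 CPM in the libraries labelled APP/PS1 and 24.3, 17.3 and 5.38 CPM in those labelled APP/PS1/Sirt3-/-, against 5.77, 11.4 and 12.6 CPM in Sirt3-/- and 10.7, 7.84 and 7.49 CPM in WT. The library labelled APP/PS1/Sirt3-/- 4 was thus the lowest of all 12 and the library labelled APP/PS1 4 was above all of Sirt3-/- and WT. The average log2 fold change was 0.73 (SE 0.329, adjusted p = 0.243 from edgeR), and with the marker covariates it was -0.54. The library labelled APP/PS1/Sirt3-/- 4 also had the lowest summed thalamic markers of the groups with transgenes (87.4 CPM, against 198 to 335 CPM in the other 5). It was lowest there in choroid plexus markers too (27.9 CPM, against 486 to 1155 CPM) and in oligodendrocyte markers (4428 CPM, against 5318 to 6862 CPM). Its striatal markers were the highest (1323 CPM, against 205.5 to 916 CPM). The part of these differences in Spp1 was not tested beyond the covariate fit, which held no oligodendrocyte markers.

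Csf1, a ligand that helps to keep microglia alive, had 26.8 to 36.9 CPM in APP/PS1 and 30.8 to 33.0 CPM in APP/PS1/Sirt3-/-, against 23.2 to 29.1 CPM in Sirt3-/- and 25.9 to 29.2 CPM in WT. Igf1, a growth factor, had 7.28, 7.46 and 6.85 CPM in the libraries labelled APP/PS1 and 7.27, 8.60 and 5.09 CPM in those labelled APP/PS1/Sirt3-/-, against 6.51, 4.50 and 5.32 CPM in Sirt3-/- and 6.40, 6.85 and 8.38 CPM in WT. Its groups overlapped, and the average log2 fold change was 0.18 (SE 0.140, adjusted p = 0.491 from edgeR). Gpnmb, a glycoprotein of lipid-laden phagocytes, had 5.14, 8.43 and 4.22 CPM in the libraries labelled APP/PS1 and 5.83, 4.12 and 3.88 CPM in those labelled APP/PS1/Sirt3-/-, against 2.73, 3.44 and 3.99 CPM in Sirt3-/- and 4.40, 4.92 and 3.30 CPM in WT. Neither Csf1 (adjusted p = 0.190) nor Gpnmb (adjusted p = 0.186) passed.

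Of the lysosomal and phagosomal genes besides Cst7, 1 was called. Mpeg1, which encodes the pore-forming protein perforin-2 of phagocytes, had 30.1, 56.2 and 29.6 CPM in the libraries labelled APP/PS1 and 45.0, 46.0 and 41.7 CPM in those labelled APP/PS1/Sirt3-/-, against 27.2, 22.9 and 23.2 CPM in Sirt3-/- and 25.8, 30.0 and 24.1 CPM in WT. It rose by 0.69 (SE 0.152, adjusted p = 0.0464 from edgeR), and each library labelled APP/PS1/Sirt3-/- was above all of Sirt3-/- and WT. Lyz2, the lysozyme of macrophages, had 14.6, 28.0 and 8.16 CPM in the libraries labelled APP/PS1 and 20.9, 14.2 and 11.5 CPM in those labelled APP/PS1/Sirt3-/-, against 6.08, 13.6 and 9.25 CPM in Sirt3-/- and 8.85, 10.2 and 7.24 CPM in WT. Its log2 fold change of 0.81 (SE 0.314) had an adjusted p of 0.183, and a near-identical copy, Lyz1, could share its reads. Cd68, a lysosomal membrane protein used as a stain for phagocytic microglia, had 6.45 to 16.3 CPM in APP/PS1 and 10.4 to 12.8 CPM in APP/PS1/Sirt3-/-, against 8.31 to 9.34 CPM in Sirt3-/- and 8.05 to 9.11 CPM in WT. Its lowest value of all 12 was in the library labelled APP/PS1 4, and its adjusted p was 0.329.

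Cd63, Timp2, Fabp5 and Hif1a are expressed by many brain cells and had small fold changes. Cd63, a tetraspanin of late endosomes, had 81.7, 91.7 and 82.2 CPM in the libraries labelled APP/PS1 and 84.2, 81.2 and 64.1 CPM in those labelled APP/PS1/Sirt3-/-, against 59.6, 79.1 and 58.6 CPM in Sirt3-/- and 58.8, 76.8 and 65.8 CPM in WT. Timp2, an inhibitor of metalloproteinases, had 337, 353 and 273 CPM in the libraries labelled APP/PS1 and 344, 386 and 324 CPM in those labelled APP/PS1/Sirt3-/-, against 183, 337 and 238 CPM in Sirt3-/- and 299, 194 and 187 CPM in WT. Sirt3-/- 2 reached the range of the libraries with transgenes in both genes. Fabp5, a fatty acid carrier, had 74.3, 74.9 and 84.3 CPM in the libraries labelled APP/PS1 and 79.4, 82.95 and 56.1 CPM in those labelled APP/PS1/Sirt3-/-, against 65.8, 60.3 and 64.6 CPM in Sirt3-/- and 55.2, 62.3 and 67.8 CPM in WT. Hif1a, the oxygen-sensitive transcription factor, had 42.7, 44.2 and 38.5 CPM in the libraries labelled APP/PS1 and 41.7, 46.2 and 35.4 CPM in those labelled APP/PS1/Sirt3-/-, against 40.3, 37.1 and 33.3 CPM in Sirt3-/- and 34.5, 33.3 and 30.7 CPM in WT. None of the 4 passed in the average effect, with adjusted p from edgeR of 0.128 (Cd63), 0.130 (Timp2), 0.122 (Fabp5) and 0.0823 (Hif1a). In Cd63, Fabp5 and Hif1a the library labelled APP/PS1/Sirt3-/- 4 was the lowest of the 6 with transgenes. Of those 6 it also had the lowest summed thalamic markers (87.4 CPM) and choroid plexus markers (27.9 CPM, against 486 to 1155 CPM). Among libraries without transgenes, Cd63 was highest in Sirt3-/- 2 and WT 2, where choroid plexus markers summed to 1314 and 1703 CPM. The part of these differences was not tested beyond the covariate fit, in which the log2 fold changes of Cd63 and Fabp5 were 0.12 and 0.05.

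None of the remaining genes passed. Capg, an actin-capping protein, had 2.30, 5.53 and 2.80 CPM in the libraries labelled APP/PS1 and 3.98, 3.54 and 3.18 CPM in those labelled APP/PS1/Sirt3-/-, against 1.80, 2.57 and 2.47 CPM in Sirt3-/- and 2.51, 2.33 and 2.41 CPM in WT, with an adjusted p of 0.129 from edgeR. Lgals3 (galectin-3) had 44 and 48 reads in the groups with transgenes, against 35 in Sirt3-/- and 25 in WT, and Cybb, a subunit of the phagocyte NADPH oxidase, had 53 and 64 reads, against 28 and 53. Ch25h, which makes an oxysterol from cholesterol, had 7 reads in APP/PS1 and 17 in APP/PS1/Sirt3-/-, against 4 in Sirt3-/- and 1 in WT. Ank, a membrane protein that exports pyrophosphate, had 192 to 241 CPM over all 12 libraries, and its log2 fold change of -0.0028 was the 1 negative value of the set.

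The libraries labelled APP/PS1 differed among themselves more than the other groups. APP/PS1 2 held the highest level of all 12 libraries for 20 of the 34 genes, a position it held for 7.71% of all genes tested, and it exceeded APP/PS1 1 in 33 of 34 genes by a median of 0.62 on the log2 scale (median over all genes -0.00035). Above all 6 libraries of Sirt3-/- and WT stood 19 genes in APP/PS1 1 (13.1% of all genes tested), 28 in APP/PS1 2 (17.1%) and 6 in the library labelled APP/PS1 4 (16.9%). These 6 were Cd84, Cd83, Spp1, Fabp5, Cd63 and Capg. In the libraries labelled APP/PS1/Sirt3-/- the numbers were 29 in library 1 (16.6%), 27 in library 2 (19.6%) and 17 in library 4 (13.5%). The share in the library labelled APP/PS1 4 was thus near that of all genes and the other 5 were above it. The App level of that library was also that of the libraries without transgenes.

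**Figure D4:**
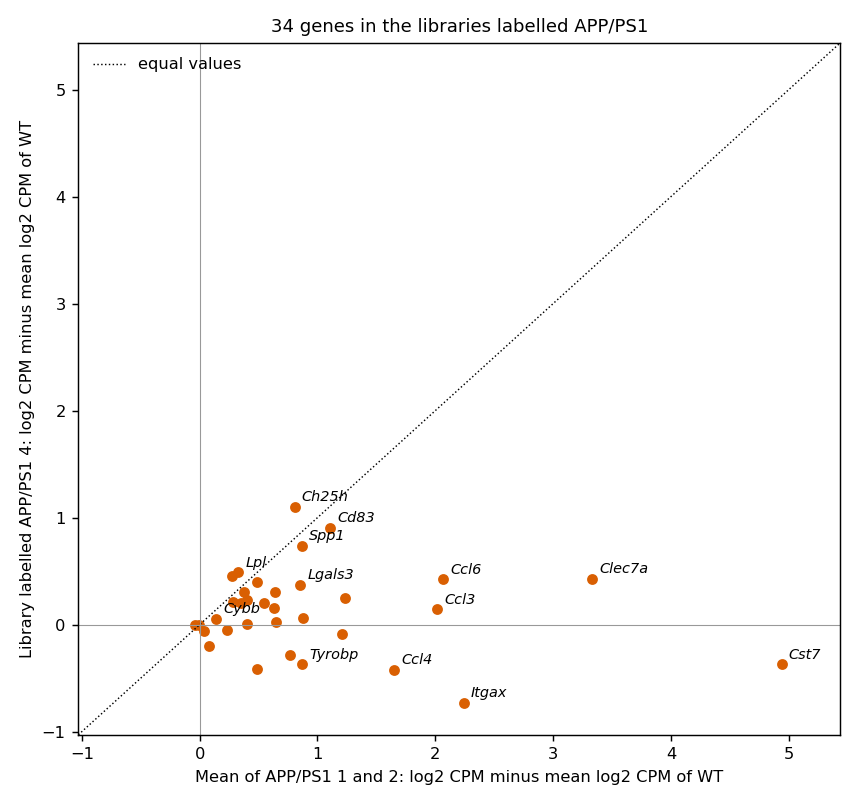
Difference from the WT mean in log2 CPM for each of the 34 genes, in APP/PS1 1 and 2 (mean, x axis) and in the library labelled APP/PS1 4 (y axis). The dotted line marks equal values. Cst7, Clec7a, Itgax, Ccl3, Ccl4 and Ccl6 lie far below the line, and Cd83, Spp1, Ch25h and Lpl lie near it or above it.

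APP/PS1 against WT compares labels with and without the transgenes where Sirt3 is intact, and it also compares tissue with unlike markers. Summed thalamic markers were 198 to 276 CPM in APP/PS1, against 67.8 to 76.5 CPM in WT. Summed cortical markers were 1449 to 1593 CPM, against 1860 to 2295 CPM. The part of these differences was not tested beyond the covariate fit, and the library labelled APP/PS1 4 had App at the level of WT. In edgeR 0 of the 34 genes and 0% of all genes tested were called higher. At an unadjusted p under 0.05 there were 13 of the 32 and 2836 of all 16673, and DESeq2 on all 12 libraries called 4 (Cd83, Clec7a, Ccl6 and Cst7) and 3.06% of all genes. Cst7 had a log2 fold change of 5.54 (SE 1.64, adjusted p = 0.167 from edgeR) and Cd83 of 1.04 (SE 0.199, adjusted p = 0.0690). In edgeR on these 2 groups alone 4 genes were called, Cd83, Spp1, Hif1a and Fabp5, with 6.81% of all genes called, and in each of these the library labelled APP/PS1 4 was above all of WT. In edgeR without the library labelled APP/PS1 4 the count stayed 0, of 3 genes called among all tested. Every library of APP/PS1 was above every library of WT in 7 of the 34 genes, Cd83, Spp1, Lpl, Fabp5, Ch25h, Cd63 and Hif1a, a separation seen in 13.3% of all genes tested.

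APP/PS1/Sirt3-/- against Sirt3-/- compares labels with and without the transgenes on the Sirt3 deletion. Each library labelled APP/PS1/Sirt3-/- was above each Sirt3-/- library in 20 of the 34 genes, against 6.98% of all genes tested, with Trem2, Tyrobp, Clec7a, Itgax, Ccl3, Cst7, Mpeg1 and Cd68 among them. Lpl was separated the other way, as were 6.63% of all genes tested. In edgeR 0 genes of the set and 0% of all genes were called higher, with 18 of 32, and 1895 of all 16673, at an unadjusted p under 0.05. DESeq2 on all 12 libraries called 5 (Cd83, Mpeg1, Itgax, Fcgr3 and Ccl3) and 0.786% of all genes. With the replicate number as a block edgeR called Cd83 and 0.06% of all genes. The log2 fold change was 4.56 (SE 1.47, adjusted p = 0.326 from edgeR) for Cst7 and 3.14 (SE 0.715, adjusted p = 0.197) for Ccl3.

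APP/PS1/Sirt3-/- against WT combines both changes, and shares its libraries with the comparisons above. Cd83 rose by 1.12 on the log2 scale (SE 0.198, adjusted p = 0.0317 from edgeR), the 1 gene called, with 0.774% of all genes tested called higher. DESeq2 on all 12 libraries called 8, with 6.3% of all genes called in either direction, and edgeR on these 2 groups alone called 9 (Cst7, Mpeg1, Itgax, Ccl3, Cd83, Tyrobp, Ccl6, Clec7a and Trem2), with 4.67%. Every library labelled APP/PS1/Sirt3-/- was above every WT library in 21 of the 34 genes, against 13% of all genes tested. The count of calls was 5 without the library labelled APP/PS1/Sirt3-/- 4 (4.77% of all genes called in either direction) and 4 without the library labelled APP/PS1 4 (0.642%). It was 2 without Sirt3-/- 1 (2.84%) or Sirt3-/- 2 (6.91%). It was 0 without the library labelled APP/PS1/Sirt3-/- 1 (0.0235%), APP/PS1/Sirt3-/- 2 (0.171%) or any WT library (0.0117% to 0.0529%). Leaving out both libraries labelled APP/PS1/Sirt3-/- 1 and 4 left 1 library in that group, so counts of those fits are not read here.

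Whether Sirt3 loss changed these genes in mice with the transgenes is asked by APP/PS1/Sirt3-/- against APP/PS1. None of the 34 was called by edgeR or by DESeq2 on all 12 libraries, against 0.0240% of all genes tested called higher by edgeR, nor was any called without the libraries labelled APP/PS1/Sirt3-/- 1 and 4, and 1 of the 32 had an unadjusted p under 0.05. Of all 16673 genes tested, 810 had an unadjusted p under 0.05. The median log2 fold change of the 32 was 0.03. For Cst7 it was -0.04 with a 95% interval from -2.39 to 2.30, for Clec7a 0.01 (-1.50 to 1.52), for Itgax 0.09 (-1.63 to 1.81) and for Trem2 -0.12 (-0.77 to 0.53). These intervals are wide, and the libraries labelled APP/PS1 span the range described above. They show neither that these genes were alike nor that they differed. The genes with the smallest p were Lpl (-0.35, SE 0.119, adjusted p = 0.974 from edgeR), Fcgr2b (0.48, SE 0.238, adjusted p = 0.974) and Gpnmb (-0.36, SE 0.265, adjusted p = 0.974). Lpl was lower in each library labelled APP/PS1/Sirt3-/- than in any labelled APP/PS1, a separation seen in 6.21% of all genes tested. The library labelled APP/PS1/Sirt3-/- 2, the 1 of its group with Sirt3 at the level of Sirt3-/-, did not stand apart from the other 2 in Cst7, Clec7a, Trem2 or Tyrobp.

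Sirt3-/- against WT showed 0 of the 34 genes called by edgeR, where 0.234% of all genes tested were called higher, and 0 by DESeq2 on all 12 libraries. At an unadjusted p under 0.05 there were 2 of the 32, and 2252 of all 16673. The median log2 fold change of the 32 was -0.02. That of the striatal markers was 2.5, and their part in the values below was not tested beyond the covariate fit. Axl was lower in each Sirt3-/- library than in any WT library (log2 fold change -0.22, SE 0.0745, adjusted p = 0.209 from edgeR), and so was Fcgr3 (-0.32, SE 0.157, adjusted p = 0.403). These were 2 of the 34 genes, and 8.49% of all genes tested were separated in that direction. Lpl, the lipase that releases fatty acids from lipoproteins, was higher in each Sirt3-/- library than in any WT library (0.34, SE 0.120, adjusted p = 0.240). It was the 1 gene of the 34 so placed, against 10.3% of all genes tested. Its levels were 22.2, 27.7 and 27.7 CPM in the libraries labelled APP/PS1 and 19.6, 20.8 and 20.3 CPM in those labelled APP/PS1/Sirt3-/-, against 23.3, 29.7 and 21.9 CPM in Sirt3-/- and 20.9, 19.7 and 18.6 CPM in WT.

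The interaction, the effect of Sirt3 loss with the transgenes minus that without them, was called for 0 of the 34 genes and for 0% of all genes tested in the higher direction. At an unadjusted p under 0.05 there were 2 of the 32, and 1080 of all 16673. The 2 were Lpl (log2 difference -0.69, SE 0.168, adjusted p = 0.745 from edgeR) and Axl (0.26, SE 0.105, adjusted p = 0.745), and DESeq2 on all 12 libraries called 0. The third by p was Cadm1 (0.34, SE 0.170, adjusted p = 0.784). Striatal markers had a median of -1.82 in the interaction, and their part in these values was not tested beyond the covariate fit.

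**Figure D5:**
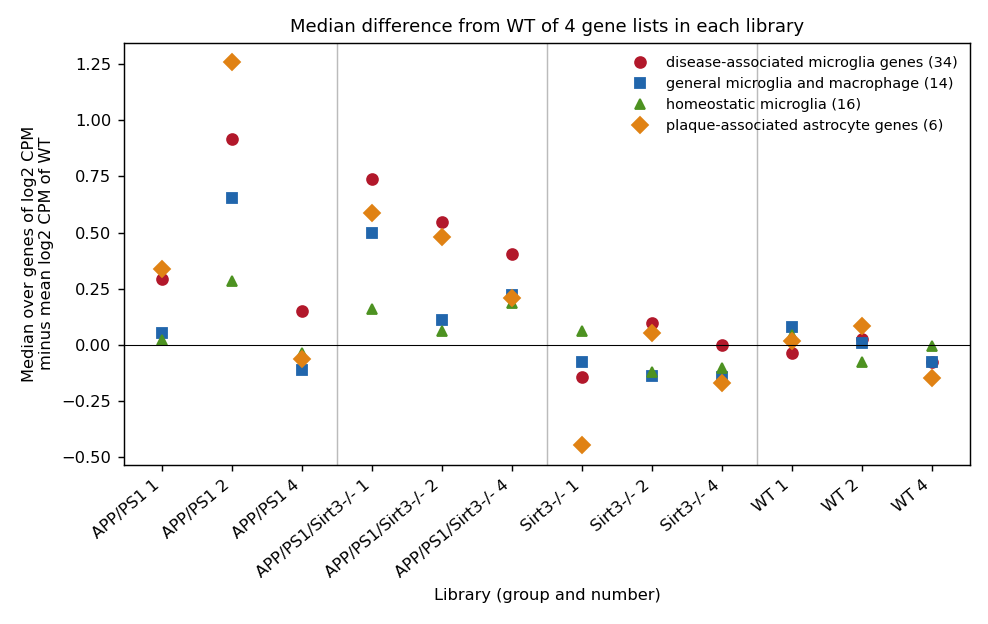
Median over the genes of each list of log2 CPM minus the WT mean (y axis), in each library (x axis), for the 34 genes and 3 other lists, whose sizes are in the legend. The 34 genes reach 0.92 in APP/PS1 2 and 0.15 in the library labelled APP/PS1 4, while homeostatic microglia genes stay between -0.12 and 0.29.

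The other genes of microglia put these values in their setting. In the average effect of the transgenes, 0 of 16 homeostatic genes passed, with a median log2 fold change of 0.11. Among them were Mef2c (-0.45, SE 0.129, adjusted p = 0.0895 from edgeR), which neurons also express, and the receptor P2ry13 (0.29, SE 0.0880, adjusted p = 0.0917). Of 14 genes of microglia and macrophages in general 0 passed, with a median of 0.30, led by Itgam (0.35, SE 0.0934, adjusted p = 0.0670), C1qb (0.37, SE 0.106, adjusted p = 0.0840) and Ctss (0.47, SE 0.133, adjusted p = 0.0874). By role, the median log2 fold change of the disease-associated genes tested was 0.61 for 13 receptors and adaptors, 0.60 for 6 secreted proteins, 0.52 for 8 lysosomal and phagosomal genes, 0.25 for Hif1a, Ank and Capg and 0.15 for Lpl and Fabp5. The homeostatic receptor P2ry12 (16.2 to 19.7 CPM in APP/PS1 and 16.4 to 18.0 CPM in APP/PS1/Sirt3-/-, against 15.5 to 20.6 CPM in Sirt3-/- and 13.9 to 19.7 CPM in WT) overlapped between all groups.

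Further genes of the same microglial state that are not in the set gave smaller values. Of 16 tested 0 passed, with a median log2 fold change of 0.27, and the 3 with the smallest adjusted p were the lysosomal genes Ctsd (0.40, SE 0.0969, adjusted p = 0.0544 from edgeR), Ctsl (0.27, SE 0.0686, adjusted p = 0.0551) and Npc2 (0.29, SE 0.0815, adjusted p = 0.0741). Of the genes that signal below Trem2 or receive the secreted ligands, 1 of 11 passed, the integrin subunit Itgav, which fell by 0.39 (SE 0.0572, adjusted p = 0.0160). Itgav is expressed by many cell types. Cd44, the other Spp1 receptor on that list, had 0.72 (SE 0.268, adjusted p = 0.151).

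Gfap, the intermediate filament of reactive astrocytes around plaques, was also highest in APP/PS1 2. Gfap had 343, 612 and 228 CPM in the libraries labelled APP/PS1 and 401, 377 and 220 CPM in those labelled APP/PS1/Sirt3-/-, against 122, 180 and 150 CPM in Sirt3-/- and 247, 269 and 204 CPM in WT. The libraries labelled APP/PS1 4 and APP/PS1/Sirt3-/- 4 lay within the range of WT. Of the 6 genes of that list 0 passed, with a median log2 fold change of 0.65, and Serpina3n had the smallest adjusted p (0.66, SE 0.163, adjusted p = 0.0586 from edgeR).

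Markers of other myeloid cells were low. Perivascular macrophage markers, of which 0 of 6 tested passed, had a median log2 fold change of -0.31 and summed to 8.90 to 13.1 CPM in APP/PS1 and 7.97 to 11.8 CPM in APP/PS1/Sirt3-/-, against 9.50 to 17.7 CPM in Sirt3-/- and 11.3 to 13.7 CPM in WT. The 7 markers of monocytes and neutrophils summed to 1.55 to 3.65 CPM in APP/PS1 and 1.22 to 3.64 CPM in APP/PS1/Sirt3-/-, against 1.28 to 5.19 CPM in Sirt3-/- and 1.59 to 1.66 CPM in WT, with 0 of 3 tested called. Ly6c2, which defines inflammatory monocytes, was at 0 in 4 of the 12 libraries and at most 0.199 CPM in the others. Thalamic markers moved with the transgene labels as well, with 1 of 6 called (Lef1, 1.02, SE 0.207, adjusted p = 0.0358 from edgeR) and a median of 1.53. Their part in the levels of the 34 genes was not tested beyond the covariate fit, in which 0 of the 34 passed and 31 of the 32 tested had a positive log2 fold change.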

How the data were processed

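Cortical RNA of mice 8 months old was sequenced in 12 libraries, 3 in each of 4 groups taken from the library titles. The study took out adaptor sequence and poor reads before alignment. Its aligner was TopHat, its genome GRCm38 (mm10), and its limit 2 mismatches a read. The authors deposited whole-number counts for each gene. They also deposited FPKM values per library, used here for levels per gene length. For the gene counter, its strand setting and the annotation, the sources used here give no details. The deposited group means and the authors' own fold changes and p-values from DESeq2 were not used.

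The tests were run in edgeR 4.0.16 under R 4.3.3: filterByExpr (16673 of 35275 genes), TMM normalization and 1 robust quasi-likelihood fit of the 4 group means, with Benjamini-Hochberg adjustment over all genes tested and a threshold of 0.05. The 7 contrasts of the 4 groups were tested. Log2 CPM used a prior count of 2. Reads counted in genes were 15251720 to 18644376 per library, so a gene at 1 CPM rests on few reads. Sequence windows came from the RefSeq table and motifs were searched on both strands; the tables used Python 3.11.15 with pandas 2.3.3, numpy 2.4.6 and scipy 1.17.1.

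All 34 genes are accounted for. Values per library are given for those the study names, for up to 20 by adjusted p in the average transgene effect, for Trem2, Spp1, Igf1 and Axl, and for up to 3 by p in each Sirt3 contrast and the interaction. From each other gene list up to 3 genes by adjusted p were eligible, and some results are not reported here. The members and lists were chosen with earlier results of these data known. Alternatives were DESeq2 1.42.0, RLE normalization, other filters, a replicate block, libraries left out, fits of 2 groups, and marker or Xist covariates. Leaving out the 4 libraries with Y-linked reads, or the libraries labelled APP/PS1 2 and 4, was chosen after seeing the data.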

Additional observations from a re-analysis of the deposited data

Results flagged for a closer look

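Lpl separated the groups in opposite directions, with no overlap between libraries. Of all genes tested, 13.3% were so separated upward in APP/PS1 against WT and 6.63% downward in APP/PS1/Sirt3-/- against Sirt3-/-. The shares were 10.3% upward in Sirt3-/- against WT and 6.21% downward in APP/PS1/Sirt3-/- against APP/PS1. The log2 fold change of Lpl was 0.39 in APP/PS1 against WT and -0.30 in APP/PS1/Sirt3-/- against Sirt3-/-. Likewise it was 0.34 in Sirt3-/- against WT and -0.35 in APP/PS1/Sirt3-/- against APP/PS1. The test of this difference, the interaction, gave -0.69 (SE 0.168) with an unadjusted p of 0.00116 and an adjusted p of 0.745 from edgeR over all genes tested, so it did not pass. Groups of 3 libraries were not examined for a library far from the rest.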

How the results depend on the processing

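Counts of disease-associated genes called moved with the tool and the libraries, and so did the share of all genes called in either direction. That share ran from 0% to 8.02% for APP/PS1 against WT and from 0% to 1.7% for APP/PS1/Sirt3-/- against Sirt3-/-. It ran from 0% to 10.8% for the average and from 0.0117% to 7.06% for APP/PS1/Sirt3-/- against WT. For these 3 pairs of groups, in that order, DESeq2 on the 2 groups alone called 8.02%, 0.36% and 7.06%. For APP/PS1 against WT, where edgeR called 0, DESeq2 on all 12 libraries called 4, edgeR and DESeq2 on the 2 groups alone called 4 and 7, and no filter on low counts or leaving out the libraries labelled APP/PS1/Sirt3-/- 1 and 4 gave 1; leaving out single libraries gave 0 to 2. For APP/PS1/Sirt3-/- against Sirt3-/-, also 0, DESeq2 called 5 on all libraries and 7 on the 2 groups, leaving out APP/PS1 2 and 4 gave 3, and single libraries 0 to 1. The average count of 6 was 13 with DESeq2, 3 with at least 1 CPM required in all 12 libraries, 0 with the marker covariates, 3 without the libraries with Y-linked reads, 1 without APP/PS1 2 and 4, and 0 to 13 over single libraries. For APP/PS1/Sirt3-/- against WT, where edgeR called 1, DESeq2 called 8 on all libraries and 11 on the 2 groups, edgeR on the 2 groups 9, no filter gave 2, leaving out APP/PS1 2 and 4 gave 4, and single libraries 0 to 5. It was 0 with the marker covariates, without the libraries with Y-linked reads, and without the libraries labelled APP/PS1/Sirt3-/- 1 and 4 and APP/PS1 4. The counts for APP/PS1/Sirt3-/- against APP/PS1, for Sirt3-/- against WT and for the interaction were 0 under every alternative run. The causes were not tested. The average and the interaction use all groups, so fits of 2 groups were not run for them.

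With the replicate number as a block the average count was 7, with 2.47% of all genes called. That of APP/PS1/Sirt3-/- against Sirt3-/- was 1 (Cd83), with 0.06% of all genes called, and the other counts did not change. The numbers are not stated to pair the libraries, but number 4 is the library with Y-linked reads in every group. Deviations of libraries with the same number correlated at -0.112 to 0.228 (18 pairs; 0.0481 to 0.228 among those numbered 4) and those with different numbers at -0.274 to 0.198 (36 pairs).

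Signs changed in 4 values that had not passed. Spp1 in the average effect was -0.54 on the log2 scale with the marker covariates. Lpl was -0.0476 without the libraries with Y-linked reads, -0.0673 without APP/PS1 2 and 4, and -7.5e-05 to 0.12 over single libraries. Ank was 0.0034 with no filter, 0.0745 with the covariates, 0.0254 and 0.0184 without the libraries labelled APP/PS1/Sirt3-/- 1 and 4, and without these and APP/PS1 4, 0.012 without those with Y-linked reads, and -0.0474 to 0.0209 over single libraries. Cst7 in APP/PS1/Sirt3-/- against APP/PS1 was 0.64 with the block, 0.12 without the libraries labelled APP/PS1/Sirt3-/- 1 and 4, 0.68 and 0.31 with the marker and Xist covariates, 1.02 without APP/PS1 2 and 4, and -0.63 to 1.97 over single libraries. For values of single genes, 816 comparisons with an alternative kept direction and side of the threshold, 79 lost the call, 53 gained one and 21 changed sign. Depth limits Cst7, Clec7a, Ccl3, Ccl4 and Ch25h, which had at most 12 reads a group in Sirt3-/- and WT.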

Other observations

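A complement gene and a protease gene outside the set were also highest in APP/PS1 2. Both were picked after their values were seen, and no test is given. C4b, a complement component made by astrocytes and microglia, had 68.2, 144 and 55.6 CPM in the libraries labelled APP/PS1 and 105, 84.7 and 78.3 CPM in those labelled APP/PS1/Sirt3-/-, against 35.7, 65.3 and 53.0 CPM in Sirt3-/- and 70.9, 61.9 and 56.3 CPM in WT. Ctse, the aspartic protease cathepsin E, had 0.161, 0.772 and 0 CPM in the libraries labelled APP/PS1 and 0.231, 0.264 and 0.116 CPM in those labelled APP/PS1/Sirt3-/-, against 0 in every Sirt3-/- library and 0, 0.0665 and 0 CPM in WT.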
